A study of Sus scrofa with 105 samples.

Results

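Frontal lobe microRNAs (miRNAs) of injured piglets given cyclosporine A (CsA) were compared with those of injured piglets left untreated. The libraries were chosen by the region and group named in the labels, which gave 19 of the 105 libraries of the series: 9 from the CsA group and 10 from the untreated group at 1 day. All animals were female pigs (Sus scrofa) in a study of diffuse traumatic brain injury in the young, and the tissue had been formalin-fixed and embedded in paraffin. CsA was given intravenously by infusion pump at 20 mg/kg per day, as a loading dose 6 hours after injury and an infusion over the next 24 hours, and these animals survived for 30 hours. The untreated injured animals survived for 1 day. A reference group of the same region, 18 libraries of sham or naïve animals with survival of 0 to 8 days and no treatment gave the level without injury. The sources used here do not give age, strain, the mode of injury or any vehicle infusion. Because the drug and the longer survival come together in every CsA animal, their contributions cannot be told apart. The study set out to describe the miRNA profile after injury and in relation to protection of the brain by CsA.

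A miRNA is a short RNA that guides Argonaute proteins to partly complementary mRNAs and lowers their translation or stability. CsA binds cyclophilins. With cyclophilin A it inhibits the phosphatase calcineurin, which keeps the transcription factor NFAT out of the nucleus and blunts the activation of lymphocytes. Its binding to cyclophilin D hinders opening of the permeability transition pore of mitochondria, and this is the usual reason given for testing it in brain injury. In the brain, calcineurin and NFAT also act in neurons, astrocytes and microglia, and neuronal activity drives transcription of some miRNA loci through other factors such as CREB.

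Levels are given in CPM, a count divided by the TMM-scaled total of its library and multiplied by 1000000, and differences are CsA minus 1 day on the log2 scale. The CsA libraries held 5671999 to 10008390 counts (median 8669991) and the 1 day libraries 5857491 to 12413430 (median 10314190). The ratio of geometric means was 0.881 (exact permutation test, 2-sided, p = 0.249). The let-7 family with miR-98 took 74.4% ± 2.39 (SD, n = 9) of the counts in CsA libraries and 73.3% ± 1.72 (SD, n = 10) in 1 day libraries (exact permutation test, p = 0.266). Fewer miRNAs had any count in CsA libraries, 333.3 ± 3.54 (SD, n = 9) against 338.2 ± 4.47 (SD, n = 10). That difference had p = 0.0207 in an exact permutation test and 0.0620 after Benjamini-Hochberg adjustment over these 3 comparisons, and so did not pass 0.05. It passed when CsA replicate 1 or 1 day replicate 3 or 6 was left out, with the difference then between -5.7 and -5.44 miRNAs. The neuronal miRNAs miR-124a, miR-9 and miR-128 were abundant in every library of both groups, at no less than 5219, 9348 and 6034 CPM. The 18 sham or naïve libraries ranged more widely in depth, from 98996 to 13194782 counts.

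No miRNA passed the test between CsA and untreated injury. Of 293 names tested, 0 passed an adjusted p of 0.05 in edgeR's quasi-likelihood test in either direction (0%), and the smallest adjusted p was 0.959. An unadjusted p under 0.05 was reached by 5 names (1.71%). That is less than the share of 0.05 that would reach it on average if no miRNA differed. DESeq2 and limma voom also called 0, with 10 names each at an unadjusted p under 0.05. Only 3 of the 284 distinct miRNAs (names that hold the same reads counted once) had an estimated difference of more than 2-fold. All 3 had large standard errors in the fit of all 52 frontal libraries: miR-182 at 1.03 (SE 1.13), miR-96-5p at 1.03 (SE 1.08) and miR-4332 at 1.01 (SE 0.91). In no miRNA were all 9 CsA libraries above, or all 9 below, all 10 untreated ones.

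The data bounded most differences within 2-fold. For 250 of the 284 miRNAs (88.0%) the 95% interval of the difference lay within 2-fold in either direction, and for 164 (57.7%) it lay within 1.5-fold. At 10 CPM or more in either group, 191 of 205 were bounded within 2-fold. The intervals come from the fit of all 52 frontal libraries, so spread among the sham and 1 week libraries also enters their width. The 14 miRNAs not bounded within 2-fold fell into 2 kinds. The first were miRNAs of epithelium and endocrine cells that vary from library to library (miR-182, miR-183, miR-96-5p, miR-141, miR-200b, miR-429 and miR-375). The others were miR-10386, miR-574-5p, miR-423-5p, miR-885-3p, miR-1307, miR-193a-5p and miR-769-3p, all of them lower in untreated injury than in sham animals. The median size of the difference over all miRNAs was 0.12, against 0.33 for 1 day minus sham and 0.33 for CsA minus sham. In bulk tissue, fewer cells of a type and less RNA per cell cannot be told apart.

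**Figure D1:**
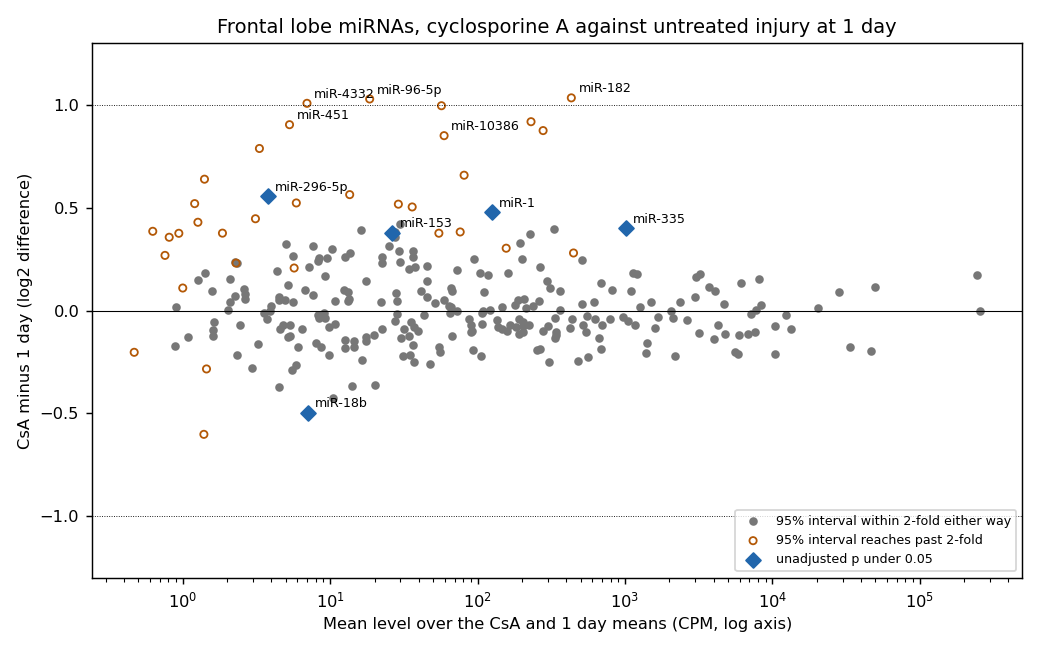
Difference between CsA and untreated injury at 1 day (vertical axis, log2) against mean level (horizontal axis, CPM, log scale) for the 284 distinct frontal lobe miRNAs, 1 point each. Blue diamonds are the 5 miRNAs at an unadjusted p under 0.05, orange circles have a 95% interval reaching past 2-fold and dotted lines mark 2-fold; most points lie close to 0 at every level.

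Among miRNAs at 10 CPM or more, miR-1 had the smallest p on the side of higher levels in CsA. It is best known as a miRNA of heart and skeletal muscle. The CsA libraries ranged from 83.7 to 219.6 CPM with a median of 136.4, and the 1 day libraries from 78.5 to 137.5 with a median of 105.0. Replicates 4, 5, 6 and 7 of the CsA group lay above every untreated library, and the other 5 within the untreated range. The difference was 0.48 (SE 0.20, 95% interval 0.08 to 0.88), with an unadjusted p of 0.0198 and an adjusted p of 0.959 in edgeR.

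miR-335 is processed from an intron of the imprinted gene MEST. Its levels were 733 to 1452 CPM (median 1204) with CsA and 544 to 1178 CPM (median 839) without it. The difference was 0.40 (SE 0.18), with an unadjusted p of 0.0307, and 6 of 9 CsA libraries exceeded the highest untreated one. miR-153, a brain-enriched miRNA known to target the mRNA of α-synuclein, ran from 17.7 to 42.5 CPM (median 31.7) with CsA and from 19.3 to 31.2 CPM (median 22.9) without it. Its difference was 0.38 (SE 0.18), at an unadjusted p of 0.0399, with 5 of 9 CsA libraries above all untreated ones.

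These 3 miRNAs varied together within the CsA group. The 4 CsA libraries highest in miR-1 were also the 4 highest in miR-335 and in miR-153 (replicates 4, 5, 6 and 7), and for each of the 3, replicates 8 and 9 lay below the median of the untreated libraries. For example, replicate 8 had 83.7 CPM of miR-1, 733 of miR-335 and 19.3 of miR-153. The same 4 libraries were the highest for 11 of the 205 miRNAs at 10 CPM or more, a pattern looked for after the first 3 had been seen. The others were miR-101, miR-29a-3p, miR-29b, miR-450a, miR-450c-5p, miR-542-3p, miR-708-3p and miR-98. miR-101 had a group difference of 0.39, as given below, close to those of miR-335 and miR-153. The other 7 had smaller ones: 0.17 for miR-450a, 0.18 for miR-450c-5p and 0.30 for miR-542-3p, which lie in 1 gene cluster, and 0.15 for miR-98, 0.05 for miR-708-3p, 0.03 for miR-29b and -0.04 for miR-29a-3p.

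The next 3 on the higher side were miR-339-5p, miR-101 and miR-142-5p. miR-339-5p ran from 150 to 287 CPM (median 212) with CsA and from 123 to 227 CPM (median 197) without it, a difference of 0.25 (SE 0.13, unadjusted p = 0.0563 in edgeR). Its reads are shared with the names miR-339 and miR-4334-3p. miR-101, which is known to repress the histone methyltransferase EZH2, ran from 10.5 to 27.0 CPM (median 19.2) against 10.6 to 19.6 CPM (median 13.0), a difference of 0.39 (SE 0.22). miR-142-5p, a miRNA of blood-forming cells, ran from 17.6 to 69.7 CPM (median 29.8) against 17.6 to 47.1 CPM (median 22.7). Its difference was 0.42 (SE 0.24). CsA replicate 5 held 69.7 CPM and the next highest CsA library 43.2 CPM, and without replicate 5 the difference was 0.22.

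On the lower side, 3 of the 6 miRNAs with the smallest p at 10 CPM or more belong to related clusters. miR-20b and miR-363 belong to the miR-106a-363 cluster, a relative of the miR-17-92 cluster that holds miR-20a-5p, and both clusters are known for promoting cell cycle progression. miR-20b ran from 36.1 to 51.5 CPM (median 45.2) with CsA and from 35.2 to 68.6 CPM (median 52.2) without it, with all 9 CsA libraries below the untreated median. The difference was -0.26 (SE 0.13, unadjusted p = 0.0567 in edgeR). For miR-363 the levels were 6.11 to 11.7 CPM (median 8.47) against 9.05 to 14.5 CPM (median 12.3), again with all 9 CsA libraries below the untreated median, and the difference was -0.43 (SE 0.25). miR-20a-5p ran from 220.1 to 337 CPM (median 274) against 235 to 426 CPM (median 329), a difference of -0.25 (SE 0.13).

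miR-18b, of the same cluster as miR-363 but under 10 CPM, had the smallest p of all 293 names and is named here after its values were seen. It ran from 4.30 to 7.84 CPM (median 5.66) with CsA and from 4.01 to 12.2 CPM (median 8.15) without it. The difference was -0.50 (SE 0.20, 95% interval -0.90 to -0.10, unadjusted p = 0.0159, adjusted p = 0.959 in edgeR). The list of miR-17-92 and related miRNAs did not move as a block. Of its 13 measured members 8 had differences below 0 and 5 above, miR-106a itself stood at 0.00 (SE 0.32) at 2.05 ± 0.835 CPM (SD, n = 9), miR-17-5p at -0.10 (SE 0.16) and miR-92b-5p at 0.79 (SE 0.45).

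The other 3 on the lower side were abundant. miR-138, a neuronal miRNA known to limit the size of dendritic spines, ran from 7626 to 12208 CPM (median 9581) with CsA and from 9988 to 14220 CPM (median 10834) without it. All but 1 of the CsA libraries lay below the untreated median, and the difference was -0.21 (SE 0.12, 95% interval -0.45 to 0.03). miR-103, encoded in introns of pantothenate kinase genes, ran from 4464 to 6897 CPM (median 5280) against 5435 to 6688 CPM (median 6358), a difference of -0.21 (SE 0.12). miR-95 ran from 1341 to 2806 CPM (median 1820) against 1856 to 2866 CPM (median 2352), a difference of -0.22 (SE 0.12). The unadjusted p of these 3 lay between 0.0730 and 0.0849 in edgeR.

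**Figure D2:**
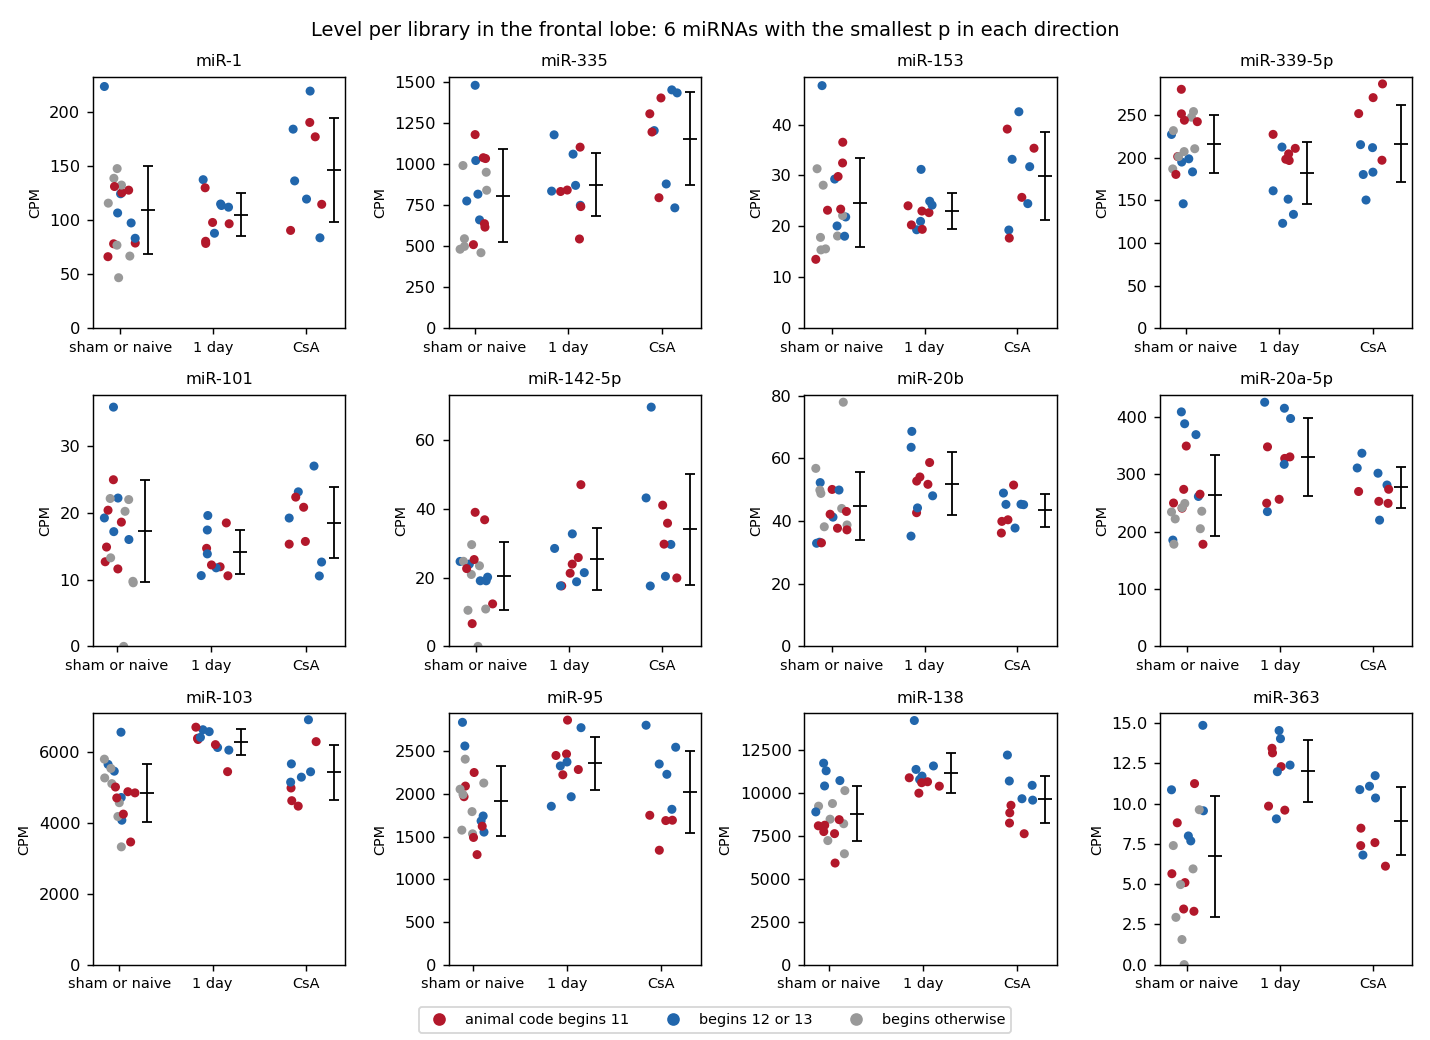
Level (CPM, linear axis from 0) of the 6 miRNAs with the smallest p on each side, 1 point per library in sham or naïve, untreated 1 day and CsA animals, coloured by the first digits of the animal code; bars show mean and SD. CsA and 1 day points overlap in all 12 panels, and the 4 highest CsA libraries of miR-1, miR-335 and miR-153 stand above all 1 day points.

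Calcineurin is the target of CsA, so miRNAs tied to calcineurin and NFAT were examined as a group. Of 7 measured, 0 passed the test (background 0%). Their differences ran from -0.22 to 0.48 with 5 below 0 and a median of -0.09, beside 0.01 over all miRNAs. Over all 284 miRNAs 147 lay above 0 and 137 below, which is the background for this and the later lists. Whether any list was shifted was not tested. miR-199b-5p, which NFAT induces in the heart, stood at 13.4 ± 4.87 CPM (SD, n = 9) with CsA and 13.0 ± 2.84 (SD, n = 10) without it. miR-23a, which responds to calcineurin in muscle, stood at 97.9 ± 18.2 against 114 ± 20.1 CPM, a difference of -0.22 (SE 0.15). miR-133a-3p, known to target calcineurin, stood at 4.44 ± 1.67 against 4.76 ± 0.826 CPM. The highest of the group was miR-1, and miR-155-5p and miR-181a stood at -0.08 and -0.11. The remaining member, miR-199a-3p, whose reads are shared with the name miR-199b-3p, also lay below 0. All 7 were bounded within 2-fold.

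MicroRNAs of inflammation showed no called difference. Of 9 measured in the list of microglia and inflammation 0 passed, 8 lay below 0 (137 of 284 over all miRNAs) and the median was -0.09. miR-21-5p, which rises in reactive glia, ran from 91.7 to 220.3 CPM (median 141) with CsA and from 103 to 199 CPM (median 139) without it, a difference of -0.05 (95% interval -0.37 to 0.28). miR-155-5p, induced in activated immune cells, ran from 236 to 362 CPM (median 286) against 241 to 400.4 CPM (median 302), a difference of -0.08 (95% interval -0.30 to 0.15). miR-146b, a target of NF-κB and STAT signalling, stood at 28.7 ± 5.23 (SD, n = 9) against 33.5 ± 5.69 CPM (SD, n = 10), a difference of -0.22 (SE 0.17). miR-146a-5p was near the limit of detection, at 1.53 ± 1.10 against 1.66 ± 0.787 CPM.

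Blood leukocyte miRNAs were split. Of 6 measured 0 passed, with 3 on each side of 0 and a median of 0.11. miR-142-3p ran from 17.3 to 58.1 CPM (median 30.5) with CsA and from 14.5 to 38.2 CPM (median 24.5) without it, a difference of 0.36 (SE 0.24). miR-223, a granulocyte and monocyte miRNA, stood at 6.12 ± 1.5 against 5.08 ± 1.32 CPM, a difference of 0.27 (SE 0.24). miR-150, a miRNA of mature lymphocytes, stood at 86.5 ± 13.2 against 98.8 ± 11.1 CPM, a difference of -0.19 (SE 0.12). CsA replicate 5 was the highest CsA library for miR-142-5p, miR-142-3p, miR-21-5p and miR-146a-5p, with 4.20 CPM of the last.

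The red cell miRNA miR-451 ran from 0.533 to 25.1 CPM (median 1.36) with CsA and from 1.23 to 9.77 CPM (median 2.78) without it. Its mean was higher with CsA and its median lower: 5 of the 9 CsA libraries lay below the untreated median and 2 above every untreated library. The difference was 0.90 (SE 0.56), and it was 0.38 without CsA replicate 2 and -0.30 with weights for library quality. miR-486, the other main erythroid miRNA, stood at 103 ± 44.0 against 86.6 ± 33.4 CPM. Of the 3 measured miRNAs of the erythrocyte list 0 passed, with these 2 above 0 and miR-363 at -0.43 (SE 0.25). The contribution of residual blood to the leukocyte values was not tested.

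Neuronal and glial miRNAs were near 0 on balance. Of 12 neuron-enriched miRNAs 0 passed, 6 lay on each side of 0 and the median was 0.00402. miR-124a, the most neuron-specific of them, ran from 5219 to 8496 CPM (median 7160) with CsA and from 5640 to 9327 CPM (median 7018) without it. Its difference was -0.02 (95% interval -0.25 to 0.22), with no direction, since the sign changed with the scaling. The 12 neuron-enriched miRNAs summed to 51373 to 60664 CPM in CsA libraries and 53549 to 64771 CPM in untreated ones. Of the pair transcribed from 1 CREB-responsive locus, miR-132 stood at 161 ± 12.9 against 169 ± 21.6 CPM, a difference of -0.07 (SE 0.11). Its neighbour miR-212 ran from 8.61 to 16.6 CPM (median 12.1) with CsA and from 12.3 to 18.7 CPM (median 15.9) without it, a difference of -0.37 (SE 0.27), with 7 of 9 CsA libraries below the untreated median.

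Of 3 oligodendrocyte miRNAs 0 passed, with 1 above and 2 below 0. miR-219a stood at 2.13 ± 0.75 against 2.08 ± 0.653 CPM, a difference of 0.04 (SE 0.35). miR-219b-3p and miR-338 stood at 326 ± 30.3 against 353 ± 36.6 CPM and at 1024 ± 141 against 1060 ± 216 CPM, with differences of -0.12 (SE 0.09) and -0.05 (SE 0.14). Astrocyte-associated miRNAs had 0 of 10 called, 7 below 0 (137 of 284 over all miRNAs) and a median of -0.10. They include miR-29a-3p at -0.04 (SE 0.12), miR-23b at -0.25 (SE 0.19) and miR-27a at -0.18 (SE 0.25).

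Vascular miRNAs held no call either. Of 8 endothelial miRNAs 0 passed, with 4 on each side of 0. miR-126-3p, which supports vascular integrity, ran from 4233 to 6929 CPM (median 5042) with CsA and from 4777 to 7227 CPM (median 5911) without it, a difference of -0.20 (SE 0.13). The other arm of the same precursor, miR-126-5p, stood at 0.14 (SE 0.16). Of 6 miRNAs of smooth muscle and mural cells 0 passed, and miR-143-3p ran from 2558 to 6916 CPM with CsA against 3168 to 4839 CPM without it.

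Mitochondria are the other site of action of CsA. Of 8 mitochondria-associated miRNAs 0 passed, and their differences ran from -0.13 to 0.09. They include miR-181c, which enters mitochondria, at -0.07 (SE 0.15). miR-210, the main miRNA of hypoxia and a repressor of mitochondrial respiration, ran from 39.1 to 68.8 CPM (median 51.8) with CsA and from 41.9 to 57.5 CPM (median 51.7) without it, a difference of 0.03 (95% interval -0.27 to 0.34). Of 9 miRNAs of p53 signalling and cell death 0 passed, 8 lay below 0 (137 of 284 over all miRNAs) and the median was -0.10. With RLE scaling 6 of the 9 lay below 0. miR-34a, a direct target of p53, stood at 636 ± 101 against 698 ± 156 CPM, a difference of -0.13 (SE 0.11). miR-16 stood at 7397 ± 654 against 7943 ± 729 CPM, a difference of -0.10 (95% interval -0.26 to 0.05).

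Large families also held no call. Of 10 let-7 family names 5 lay above and 5 below 0. let-7c, the family member with the largest positive value, stood at 0.17 (SE 0.18) and let-7g, with the largest negative value, at -0.20 (SE 0.12). Reads of closely similar let-7 members can be assigned to each other, which leaves single values in doubt. All 10 miR-30 family names and all 6 of the miR-99/100 and miR-125 group were bounded within 2-fold. Of 18 measured miRNAs of the imprinted DLK1-DIO3 cluster, many of them brain-enriched, 0 passed and 15 lay above 0, but the median was only 0.08. Over all miRNAs 147 of 284 lay above 0, and members of 1 cluster are not independent of each other. miR-432-5p stood at 3190 ± 446 against 2850 ± 279 CPM (0.16, SE 0.12) and miR-136-3p at 31.0 ± 11.6 against 23.8 ± 6.22 CPM (0.38, SE 0.25).

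**Figure D3:**
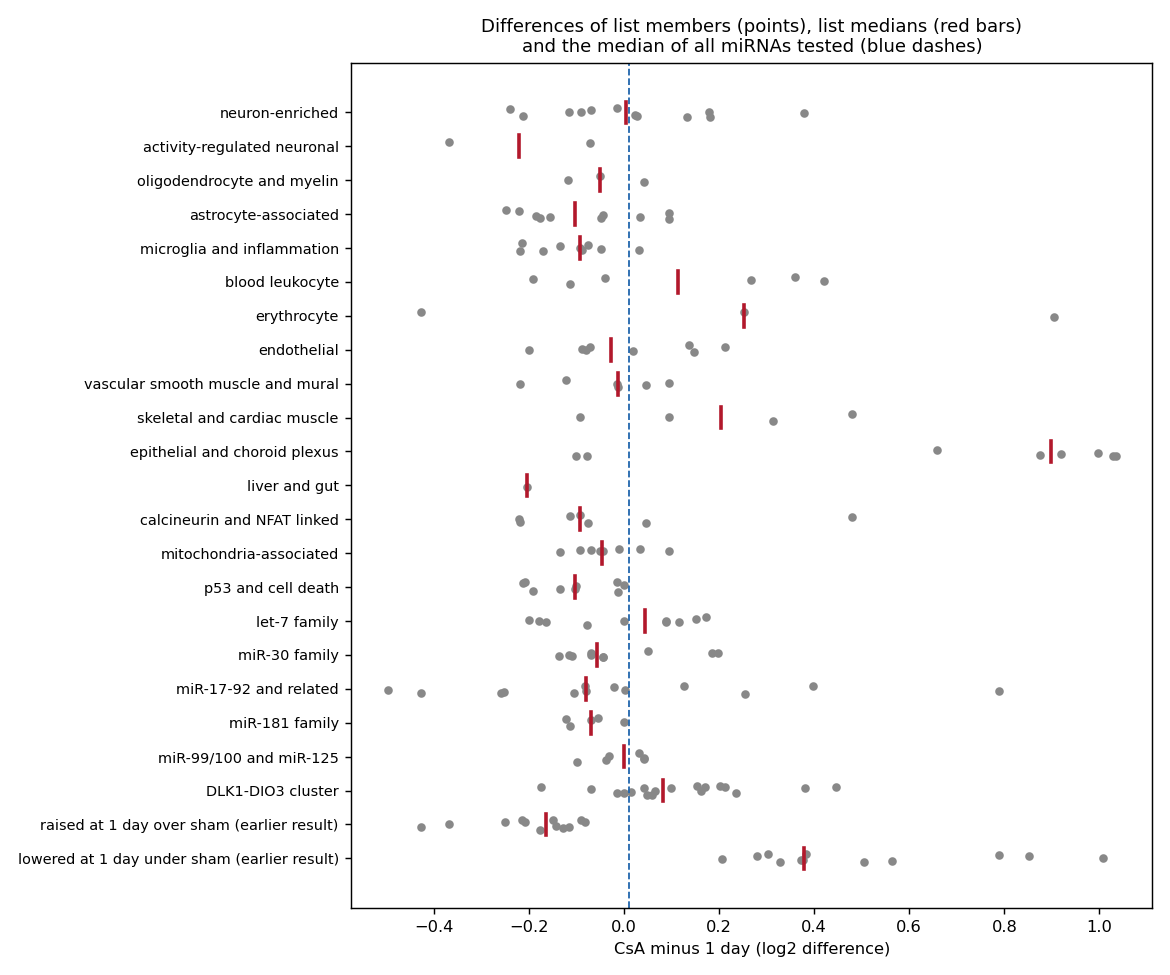
Difference between CsA and untreated injury at 1 day (horizontal axis, log2) for each member (points) of 23 lists of miRNAs, with the median of the list (red bar) and of all miRNAs tested (blue dashes). The medians lie close to 0 for most lists; the epithelial list and the list of miRNAs lowered at 1 day lie to the right, and the latter shares its 1 day libraries with the comparison.

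One list stood far from 0 without passing the test. MicroRNAs of the miR-200 family and the miR-183 cluster are known from epithelium, and which cells carried them here was not tested. miR-182 ran from 50.9 to 1113 CPM (median 696) in CsA libraries and from 3.57 to 705 CPM (median 284) in untreated ones. In the 6 miRNAs miR-182, miR-183, miR-96-5p, miR-141, miR-200b and miR-429 the summed level was 132 to 2803 CPM with CsA (median 1605) and 4.04 to 1884 CPM without it (median 734). Levels in sham or naïve libraries also ran from 2.77 to 2320 CPM. The libraries fell apart within groups: CsA replicates 1, 2, 6, 7 and 9 had 696 to 1113 CPM of miR-182 and replicates 3, 4, 5 and 8 had 50.9 to 202 CPM. The split lay along the animal code in the library names for all but replicate 1: the 4 CsA libraries with codes beginning 11 were replicates 2, 6, 7 and 9, and replicates 1, 3, 4, 5 and 8 had codes beginning 12 or 13. miR-182 averaged 954 ± 184 CPM (SD, n = 4) in the first and 284 ± 360.5 CPM (SD, n = 5) in the second, and in untreated libraries 399 ± 239 CPM (SD, n = 5) and 169 ± 161 CPM (SD, n = 5). With the group as a covariate, miR-182 stood 1.44 (SE 0.73) higher in codes beginning 11, which did not pass (adjusted p = 0.148 in edgeR). With the highest library left out of each group, the mean sum was 1274 ± 1062 CPM (SD) with CsA and 628 ± 491 CPM without it. The other members of the list, miR-204 and miR-34c, are in it for the choroid plexus and were left out of the sum. They stood near 0, at -0.08 (SE 0.20) and -0.10 (SE 0.45).

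The spread between animals was somewhat larger with CsA. The median SD of log2 levels was 0.336 in the CsA group and 0.297 in the untreated group, and 185 of 284 miRNAs had the larger SD with CsA. An SD above 1 was found for 11 miRNAs with CsA and 7 without it. These are descriptions, and the difference in spread was not tested.

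Against sham or naïve animals both injured groups differed in many miRNAs. CsA minus sham gave 42 names higher (14.3%) and 58 lower (19.8%), and 1 day minus sham gave 73 higher (24.9%) and 68 lower (23.2%), in the same edgeR fit. Several sham or naïve libraries have animal codes beginning otherwise than 11, 12 or 13, and no CsA or 1 day library does. The contrasts hold no term for the code, and its part in them was not tested. The differences from sham therefore cannot be assigned to injury alone. Both contrasts use the same sham libraries, so each one's own values are set side by side here, and a name called in only 1 of them is not thereby shown to differ between the injured groups. For 12 miRNAs chosen in earlier results of these data as raised at 1 day, all passed at 1 day minus sham and 9 of 12 passed at CsA minus sham. Their median was 0.74 at 1 day and 0.58 with CsA. For 12 chosen as lowered, all 12 passed in both contrasts, with medians of -1.98 at 1 day and -1.60 with CsA. Their summed level peaked in sham replicate 15, at 36318 CPM against a sham median of 4444 CPM. That library held only 98996 counts.

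In the direct comparison all 12 of the raised miRNAs had CsA minus 1 day differences below 0 (median -0.16) and all 12 of the lowered ones above 0 (median 0.38). None of the 24 passed. The lists were chosen on the same 1 day libraries, and that choice by itself favours differences of this sign, so these counts are no independent evidence. miR-363 showed the largest such gap among the raised miRNAs, with 0.73 (SE 0.21) at 1 day minus sham and 0.31 (SE 0.22) at CsA minus sham. miR-107, the close relative of miR-103, ran from 1072 to 1554 CPM with CsA, 1346 to 1729 CPM at 1 day and 592 to 1338 CPM in sham animals. It passed against sham in both, at 0.63 (adjusted p = 5.4e-05) and 0.43 (adjusted p = 0.00820). miR-9 stood at 12955 ± 2880 CPM with CsA, 13784 ± 3258 at 1 day and 8769 ± 3844 in sham animals, and passed against sham in both, at 0.65 (adjusted p = 0.00138) and 0.56 (adjusted p = 0.00968).

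Of the lowered miRNAs, miR-10386 had the largest difference from sham, at -5.53 (SE 1.04) at 1 day and -4.68 (SE 1.04) with CsA. Its sham levels ran from 31.3 to 13546 CPM, so the size rests on a skewed reference. miR-423-5p ran from 244 to 1052 CPM with CsA (median 391), 235 to 702 CPM at 1 day (median 411) and 255 to 3693 CPM in sham animals (median 1502). miR-92b-5p gave the largest gap between the contrasts after miR-4332 and miR-10386, with -2.35 at 1 day and -1.56 with CsA, at 2.41 ± 1.12 and 4.22 ± 2.76 CPM.

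The miRNAs that led the direct comparison lay as follows against sham. miR-335 passed with CsA, at 0.51 (adjusted p = 0.0101), and stood at 0.11 (adjusted p = 0.567) at 1 day. miR-142-5p passed with CsA, at 0.66 (adjusted p = 0.0146), and stood at 0.24 (adjusted p = 0.359) at 1 day. miR-18b passed as lower with CsA, at -0.82 (adjusted p = 0.00113), and stood at -0.33 (adjusted p = 0.113) at 1 day. In the other direction miR-138 passed at 1 day, at 0.34 (adjusted p = 0.00510), and stood at 0.13 (adjusted p = 0.323) with CsA. miR-103 passed at 1 day, at 0.37 (adjusted p = 0.00185), and stood at 0.16 (adjusted p = 0.211) with CsA. For each of these the direct difference between the injured groups did not pass. miR-296-5p, also under 10 CPM and named after its values were seen, stood at 4.49 ± 1.66 CPM with CsA, 3.05 ± 0.930 at 1 day and 7.41 ± 4.60 in sham animals, with a direct difference of 0.56 (unadjusted p = 0.0416 in edgeR).

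**Figure D4:**
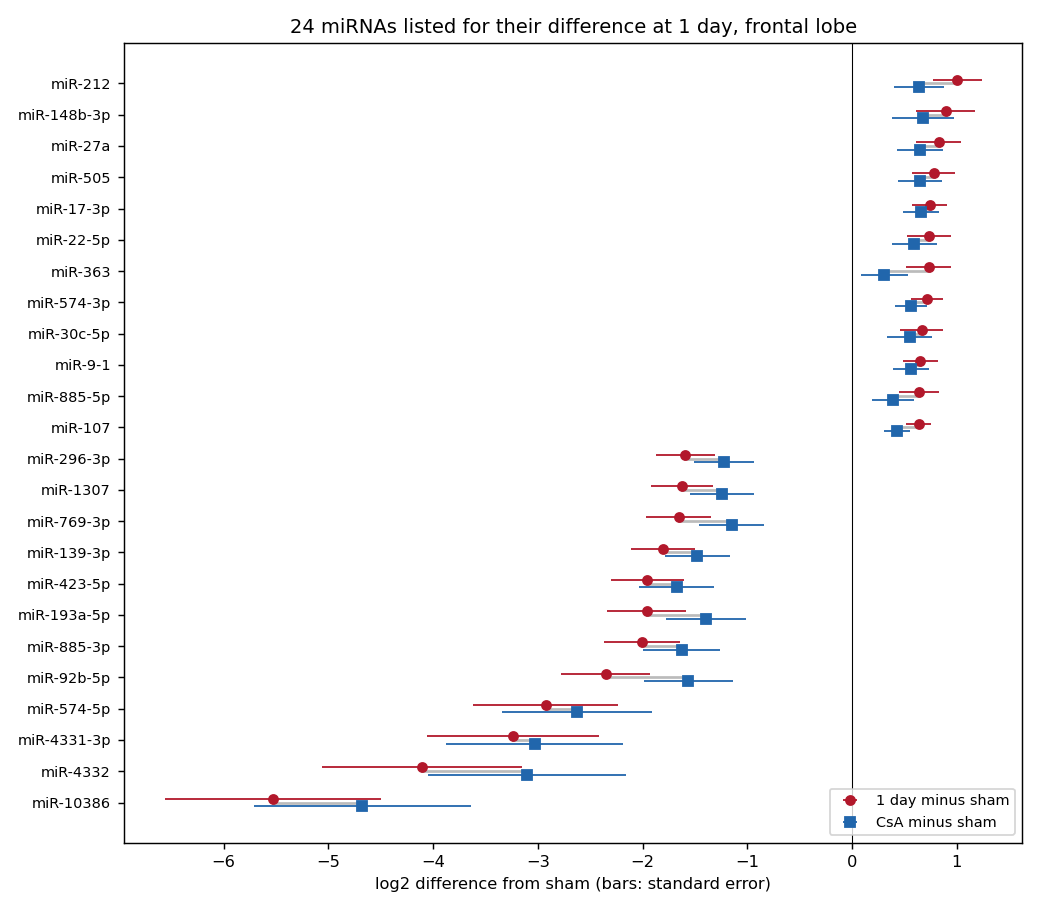
Difference from sham or naïve animals (horizontal axis, log2, bars are SE) for 12 miRNAs listed as raised and 12 as lowered at 1 day, with untreated injury at 1 day (red circles) and CsA (blue squares). CsA values lie closer to 0 for all 24, and the lists were chosen on the red values.

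The library names carry an animal code whose meaning is not given. In the CsA group 4 codes begin with 11 and 5 with 12 or 13, and in the untreated group 5 and 5. The code ranges differed from each other within these groups: with the group as a covariate, 42 of 291 names were higher (14.4%) and 42 lower (14.4%) in codes beginning 11. Examples are miR-10386 at 1.62, miR-4332 at 1.47, miR-137 at -0.63 and miR-9 at -0.43. Both ranges are present in both groups in near equal number, so the comparison was repeated within each. Codes beginning 11 gave 0 calls with 52 names at an unadjusted p under 0.05, and codes beginning 12 or 13 gave 0 calls with 3. A fit of the 19 CsA and 1 day libraries alone, with the range as a covariate, gave 0 calls, and 43 of its 291 names reached an unadjusted p under 0.05. These counts come from fits of fewer libraries than the main fit and are not comparable with its count. For the fits within 1 range the share of names tested is not given.

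Differences within the 2 ranges come from separate animals. They had the same sign for 175 of 272 miRNAs. Pearson's r was 0.506 and Spearman's rho 0.429 across these 272, and 0.721 and 0.618 across the 205 at 10 CPM or more. This describes miRNAs in shared libraries, which are not independent of each other. miR-1 stood at 0.59 in codes beginning 11 and 0.40 in codes beginning 12 or 13, miR-335 at 0.56 and 0.29, and miR-153 at 0.46 and 0.33. On the lower side miR-138 stood at -0.28 and -0.16, miR-363 at -0.63 and -0.28, miR-18b at -0.46 and -0.49 and miR-212 at -0.59 and -0.22. Apart from miR-212, these miRNAs were chosen by p over both ranges together. That choice by itself favours the same sign in each range.

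As examples of lists, of the 7 miRNAs linked to calcineurin and NFAT, 2 lay above 0 in codes beginning 11 and 5 in codes beginning 12 or 13. Of the 9 of microglia and inflammation 1 and 4 did. Several values in codes beginning 12 or 13 were near 0, such as 0.011 for miR-155-5p, 0.028 for miR-181a and 0.035 for miR-146a-5p. The share of all miRNAs above 0 in each range was not set beside these counts, and a difference of lists between ranges was not tested. miR-95 went apart between the ranges. In codes beginning 11 it stood at 1618 CPM with CsA and 2460 CPM without it, a difference of -0.58 (adjusted p = 0.0695 in edgeR). In codes beginning 12 or 13 it stood at 0.07. The difference between ranges was -0.60 (unadjusted p = 0.00302, adjusted p = 0.66 in edgeR), the smallest p of that test. In it 0 of 298 names passed (0%), with 13 at an unadjusted p under 0.05 (4.36%). The let-7 share of counts in codes beginning 11 was 76.1% ± 0.55 (SD, n = 4) with CsA and 74.2% ± 0.976 (SD, n = 5) without it, where the groups did not overlap (exact permutation test, unadjusted p = 0.0238, and 0.143 after Benjamini-Hochberg adjustment over the 6 within-range tests). In codes beginning 12 or 13 it was 72.9% ± 2.34 (SD, n = 5) against 72.4% ± 1.92 (SD, n = 5; exact permutation test, unadjusted p = 0.683).

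**Figure D5:**
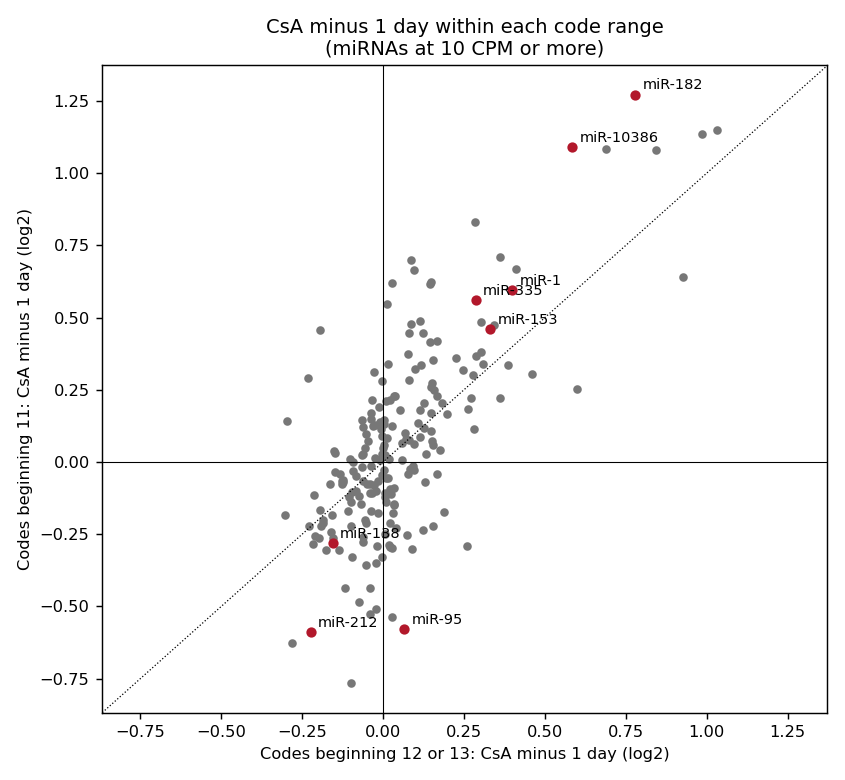
Difference between CsA and untreated injury at 1 day (log2) in animals with codes beginning 12 or 13 (horizontal axis) and beginning 11 (vertical axis), for the 205 miRNAs at 10 CPM or more; the dotted line marks equal values. miR-1, miR-335, miR-153, miR-182 and miR-10386 lie above 0 on both axes, miR-138 and miR-212 below 0 on both, and miR-95 below 0 on 1 axis.

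There were 2 codes that each occurred, apart from their last digit, in a CsA library and an untreated one. In these 2 pairs (CsA replicate 6 with 1 day replicate 4, and CsA replicate 4 with 1 day replicate 8) the log2 ratio of levels was 1.18 and 0.68 for miR-1, 0.82 and 0.45 for miR-335, and 0.77 and 0.46 for miR-153. It was -0.37 and -0.25 for miR-138, -0.54 and -0.42 for miR-363, and -0.42 and -0.32 for miR-103. For miR-95 it was -0.49 and 0.10, for miR-20b -0.0065 and -0.49, and for miR-20a-5p 0.07 and -0.34. Of the 6 miRNAs with the smallest p on the higher side all 6 lay above 0 in both pairs, and of the 6 on the lower side 5 lay below 0 in each. Both sets were chosen by p on libraries that include these pairs. That choice by itself favours such signs, so these counts are no independent evidence. The miRNAs listed as raised or lowered at 1 day were mixed in sign. Of the 12 raised ones 5 and 7 lay above 0 in the pairs as ordered here and 7 and 5 below, and miR-27a (0.48 and 0.67), miR-148b-3p (0.33 and 0.42) and miR-505 (0.20 and 0.43) were above 0 in both. Of the 12 lowered ones 3 and 6 lay above 0 and 9 and 6 below, with miR-10386 at -0.76 and 0.94, miR-139-3p at -0.61 and -0.31 and miR-423-5p at -0.48 and -0.20. What the shared part of a code stands for is not stated. The 4 CsA libraries highest in the first 3 miRNAs include both of these.

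The hippocampus with the amygdala gave 20 libraries of these groups, 10 with CsA and 10 without. In a fit of that region, 0 of 299 names passed (0%), with 71 at an unadjusted p under 0.05 (23.7%). Whether the difference itself differed between the regions was tested in another fit of the 19 animals with both libraries (9 with CsA and 10 without), with the animal as a block. The regional difference therefore need not equal the gap between the values of each region's own fit. In that test 0 of 301 names passed (0%), and 20 had an unadjusted p under 0.05 (6.64%). miR-1 stood at 0.48 in the frontal lobe and -0.43 in the other region, with a regional difference of 0.71 (unadjusted p = 0.0179, adjusted p = 0.562 in edgeR). miR-335 stood at 0.40 and -0.17, with a regional difference of 0.51 (unadjusted p = 0.00903). miR-142-5p stood at 0.42 and -0.28, with one of 0.62 (unadjusted p = 0.0318). The smallest p of the test belonged to miR-222, a miRNA of activated glia and endothelium that shares its locus with miR-221-3p. In the frontal lobe they stood at -0.09 and -0.13 and in the other region at 0.32 and 0.11, with regional differences of -0.47 (unadjusted p = 0.00593) and -0.34 (unadjusted p = 0.00788). The rest of the higher side, miR-153, miR-339-5p and miR-101, had regional differences of 0.43, 0.14 and 0.20. For the 6 miRNAs of the lower side the values had the same sign in both regions: miR-20b at -0.26 and -0.32, miR-20a-5p at -0.25 and -0.30, miR-363 at -0.43 and -0.29, miR-138 at -0.21 and -0.16, miR-95 at -0.22 and -0.30 and miR-103 at -0.21 and -0.12. These 6 were chosen by p in the frontal lobe, and 19 animals gave libraries of both regions. The share of all names with the same sign was not set beside them, so these signs are no independent evidence.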

How the data were processed

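Small RNA was extracted from fixed brain with the Mag-Bind FFPE kit and made into libraries with the QIAseq miRNA kit, per the labels' protocols. The file the authors deposited gives raw counts, as whole numbers for each mature pig miRNA in each library. The submitters' processing notes name Trimmomatic 0.39 and cutadapt 1.9.1. How reads were aligned and counted, with which annotation and build, and whether molecular identifiers were used, the sources used here do not say. Counts are therefore not taken as independent molecules, and reads shared by close family members cannot be told apart. The table has 542 entries, 89 of them 0 in every library. The entry with the highest total was kept for each of 457 mature names, and 293 names passed filterByExpr (minimum count 10) in the frontal lobe, or 284 when names with the same reads are counted once (miR-9-1 is written miR-9).

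All 52 frontal libraries (CsA, 1 day, 1 week, sham or naïve) entered 1 fit in R 4.3.3 with edgeR 4.0.16 (quasi-likelihood test, TMM scaling), with Benjamini-Hochberg adjustment at 0.05, 2-sided. Standard errors and 95% intervals were derived from that test, so the spread in every frontal group enters them. limma 3.58.1 and DESeq2 1.42.0 were alternatives, with other scalings, filters, covariates and each library left out in turn. The fit was tested on simulated data. Replicate numbers follow accession order, and replicates are taken to be animals because within a region each library has its own animal code. The same code in both regions was taken as 1 animal. The study's design text gives fewer subjects than there are codes in the series. The labels do not say more, so p-values measure the spread between these libraries. The groups, lists and named miRNAs were chosen with earlier results of these data known. Named were up to 6 miRNAs with the smallest p in each direction at 10 CPM or more, a panel, and for each list its leading members. The interaction with code range, the code pairs and the list medians under other settings were added after seeing the data.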

Additional observations from a re-analysis of the deposited data

Results flagged for a closer look

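The levels of 37 named miRNAs and 3 library measures were examined for single libraries standing apart from the rest of their group, in 80 groups in all. The nominal rate of flags by chance is about 1 in 20 groups, and 13 were flagged. The groups share libraries and are not independent, so this count was not tested against that rate. CsA replicate 5 accounted for 4 of them as the highest library, with 69.7 CPM of miR-142-5p, 58.1 CPM of miR-142-3p, 220.3 CPM of miR-21-5p and 4.20 CPM of miR-146a-5p. Other CsA libraries were the highest for miR-219b-3p (replicate 3, 393 CPM) and miR-23a (replicate 4, 137 CPM). Among untreated libraries, replicate 1 was the highest for miR-153 (31.2 CPM), miR-138 (14220 CPM) and miR-132 (226 CPM). Replicate 2 was the highest for miR-142-5p (47.1 CPM) and miR-451 (9.77 CPM) and the lowest for miR-103 (5435 CPM), and replicate 8 was the highest for miR-126-5p (1016 CPM).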

How the results depend on the processing

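The count of miRNAs past an adjusted p of 0.05 was 0 under every setting run, for the group difference and for its difference between regions. The number at an unadjusted p under 0.05, 5 as reported, was 9 with RLE scaling, 11 without let-7 and miR-98, 10 with DESeq2, 10 with limma voom, 30 with library quality weights, 11 with no filter, 8 at a minimum count of 50, 23 with the CsA and 1 day libraries alone, 9 over deposited entries, 12 with same-read names merged, 43 with the code range as a covariate, 9 with the log10 total as a covariate, 52 within codes 11 and 3 within codes 12 or 13. It ran from 3 to 12 with 1 library left out. The fit with the code range held only the CsA and 1 day libraries, so its 43 stands beside the 23 of those libraries alone. The number of names tested was not the same in every setting, so the counts are not shares of 1 total. The difference in the number of miRNAs with a count ran from -5.7 to -4.2, past the threshold in 3 such cases. The cause was not tested.

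Signs changed mainly for small values. Within codes 12 or 13 they became 0.066 for miR-95, 0.38 for miR-21-3p, 0.12 for miR-21-5p, 0.011 for miR-155-5p, 0.035 for miR-146a-5p, 0.0063 for miR-124a, -0.081 for miR-219a, 0.022 for miR-338, 0.0075 for miR-29a-3p, -0.0071 for miR-125b, 0.028 for miR-181a, 0.029 for miR-27a and 0.0057 for miR-17-3p. Within codes 11 they became 0.024 for miR-124a, -0.027 for miR-210, -0.041 for miR-143-3p and 0.010 for miR-30d. With quality weights they became 0.068 for miR-146a-5p, -0.092 for miR-219a, -0.30 for miR-451, -0.014 for miR-125b and 0.021 for miR-122-5p. miR-124a also became 0.0045 with RLE scaling and with DESeq2, 0.027 without let-7 and miR-98, 0.013 with 2 groups alone and 0.024 with the code range. With 1 library left out, ranges that crossed 0 were -0.17 to 0.049 for miR-21-5p, -0.46 to 0.069 for miR-146a-5p, -0.050 to 0.034 for miR-124a, -0.054 to 0.16 for miR-219a, -0.10 to 0.043 for miR-338, -0.026 to 0.096 for miR-210, -0.10 to 0.029 for miR-29a-3p, -0.072 to 0.13 for miR-199b-5p, -0.027 to 0.17 for miR-143-3p, -0.018 to 0.094 for miR-125b and -0.071 to 0.35 for miR-4331-3p.

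No paired analysis was possible because replicate numbers follow accession order and only 2 code stems occur in both groups. Depth limits miRNAs of a few CPM, such as miR-146a-5p.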
